A study of Mus musculus with 6 samples.

Results

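The genes described here are 6 of the 18204 in a table of mouse hypothalamic transcripts, picked by symbol. They encode thyrotropin-releasing hormone (Trh), corticotropin-releasing hormone (Crh), growth hormone-releasing hormone (Ghrh), gonadotropin-releasing hormone (Gnrh1), somatostatin (Sst) and the protein that binds corticotropin-releasing hormone (Crhbp). All 6 symbols were in the table. No GENCODE M21 gene overlapped any of them on GRCm38, where Trh lies at chr6:92242061-92244650 (minus strand), Crh at chr3:19693401-19695396 (minus), Crhbp at chr13:95431371-95444924 (minus), Ghrh at chr2:157329497-157347506 (minus), Sst at chr16:23889573-23890958 (minus) and Gnrh1 at chr14:67745181-67749439 (plus).

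The hypothalamus was taken from C57BL/6J mice of 8 weeks, and single cells were profiled by Drop-seq, which counts transcripts as unique molecular identifiers (UMIs) under a barcode for each cell. There were 3 libraries from mice without IDOL (KO1, KO2 and KO3) and 3 from wild-type mice (WT1, WT2 and WT3). IDOL, encoded by Mylip, is a ubiquitin ligase that sends lipoprotein receptors for breakdown. The labels do not say which part of Mylip was deleted, in which cells, or whether each library is its own animal, so p-values measure the spread between libraries, which may be technical.

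Neurons that project to the median eminence release these hormones into portal blood, which carries them to the anterior pituitary. There Trh drives release of thyrotropin and prolactin, Crh drives corticotropin, Ghrh drives growth hormone, Gnrh1 drives the gonadotropins, and somatostatin holds back growth hormone and thyrotropin. Many somatostatin and Trh neurons have no link to the pituitary and use the peptide as a transmitter. Each hormone is cut from a larger precursor at pairs of basic residues by the convertases Pcsk1 and Pcsk2, and Pam amidates the end of Trh, Crh and Gnrh1.

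The coding sequences show how the precursors differ, and are given because a UMI stands for 1 transcript whatever number of hormone copies it carries. Bases are from GENCODE M21 transcripts (GRCm38), 5′ to 3′, with the codons of the hormone in capitals. In the Trh transcript the capitals include the codon of the glycine used for amidation, and the lower-case bases on each side encode the pair of basic residues where the precursor is cut.
Trh copy 1: aaacgcCAGCATCCGGGCaaaagg
Trh copy 2: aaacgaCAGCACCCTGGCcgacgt
Trh copy 3: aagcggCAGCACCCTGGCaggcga
Trh copy 4: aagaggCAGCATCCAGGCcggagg
Trh copy 5: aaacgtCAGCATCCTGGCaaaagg
The mouse Trh precursor of 256 residues thus holds 5 copies of the hormone, written in 4 different base strings. The precursors of the other hormones hold 1 copy each. The Gnrh1 stretch of 10 codons is followed by the amidation glycine and a basic pair, the Sst stretch of 14 codons is preceded by a basic pair, and the Crh stretch of 41 codons is followed by the amidation glycine and a lysine.
Gnrh1: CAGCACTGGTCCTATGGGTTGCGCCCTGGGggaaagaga
Sst: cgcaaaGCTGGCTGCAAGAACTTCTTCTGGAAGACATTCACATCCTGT
Crh: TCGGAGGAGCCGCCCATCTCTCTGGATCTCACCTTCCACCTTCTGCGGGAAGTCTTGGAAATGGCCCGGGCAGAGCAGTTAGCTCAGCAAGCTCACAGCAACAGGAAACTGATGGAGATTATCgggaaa

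The table held 13994 barcodes, 1410 to 2929 per library, and 9329 cells remained after filtering, among them 3122 neurons. Neurons, like every other class named here, were called from marker genes. The KO libraries held 545, 660 and 460 neurons and the WT libraries 818, 336 and 303, with a median of 1060.5 to 1759 UMIs per neuron. Mylip had 2, 0 and 0 UMIs in the KO libraries and 68, 27 and 43 in the WT libraries. KO2 stood apart from the rest: it supplied all 18 cells of neuron cluster N17 and 90.5% of the 21 cells of N16. Of the barcodes, 1324 (9.46%) differed by 1 base from a deeper barcode of the same library, in shares of 6.50 to 8.88% in KO libraries and 9.08 to 14.2% in WT libraries. They were kept, and some results are also given without them. The transmitter, cluster and co-detection counts beside Sst and Crhbp are given with them only. Only 3 barcode strings occurred in more than 1 library.

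A neuron with at least 5 UMIs of a member is called a producing neuron of that member below. Somatostatin had by far the most, with 132 producing neurons (4.23% of neurons), followed by Trh with 30 (0.961%), Ghrh with 20 (0.641%), Crhbp with 6 (0.192%), Gnrh1 with 5 (0.160%) and Crh with 4 (0.128%). Neurons held 87.9% (Ghrh) to 99.1% (Gnrh1) of each member's UMIs. The transcripts were concentrated in few cells: 98.6% of 1012 Gnrh1 UMIs, 94.7% of 6210 Sst UMIs, 77.4% of 492 Trh UMIs, 76.8% of 578 Ghrh UMIs, 58.3% of 144 Crhbp UMIs and 50% of 52 Crh UMIs lay in cells with 5 or more. The richest cell held 506 UMIs of Sst, 442 of Gnrh1, 83 of Ghrh, 51 of Trh, 41 of Crhbp and 8 of Crh. Producing neurons were deeper than neurons with no UMI of the member, with a median total of 3994.5 against 1409 UMIs for Trh, 3720 against 1431.5 for Crh, 9005.5 against 1422 for Crhbp, 4241 against 1411 for Ghrh, 2434 against 1372 for Sst and 3551 against 1432 for Gnrh1. A neuron of few UMIs can fall short of 5, so shallow neurons are missed, and the part of depth in these counts was not tested beyond the alternatives given at the end. Shares of cells with a UMI of another gene are likewise not matched for depth unless thinning is stated.

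**Figure D1:**
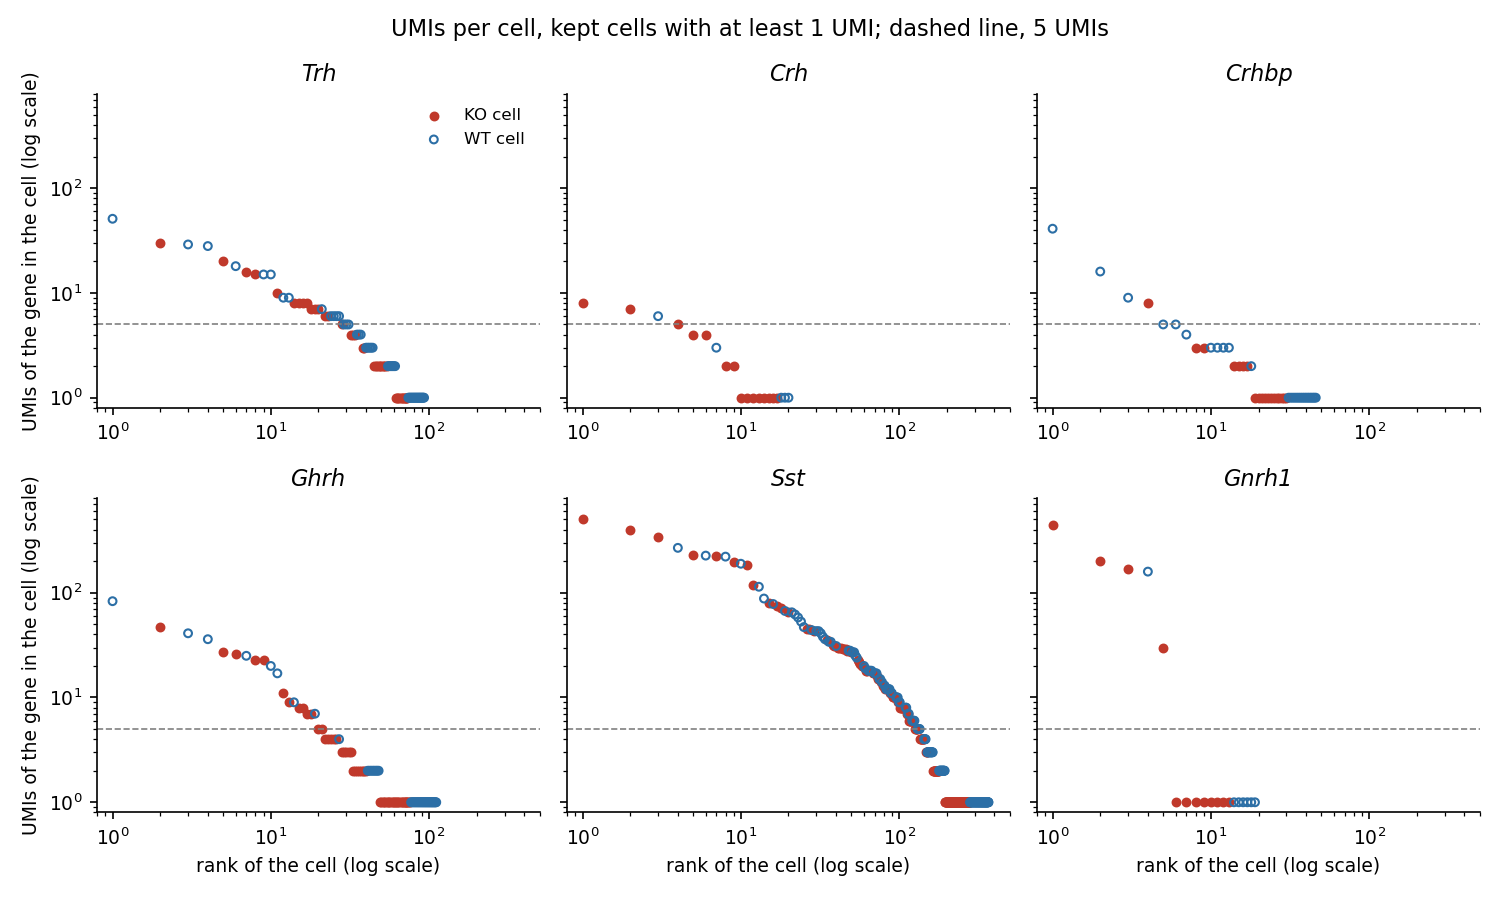
Cells ranked by UMIs of each gene (x axis, rank, log scale; y axis, UMIs in the cell, log scale), for kept cells with at least 1 UMI; filled points are KO cells, open points WT cells, and the dashed line marks 5 UMIs. Gnrh1 falls from 5 cells of 30 to 442 UMIs straight to 14 cells of 1 UMI, whereas the other genes decline through the dashed line without a gap.

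Trh, the first hormone of the thyroid axis, was counted in 93 cells, of which 32 held a single UMI. The 5 richest held 30 UMIs in KO1 and 20 in KO2, against 51 in WT1, 29 in WT2 and 28 in WT3, so high producers came from both genotypes. KO libraries had 5, 8 and 2 producing neurons and WT libraries 7, 4 and 4. The cells fell mainly into 2 groups of neurons: 20 were in cluster N0, a large GABAergic cluster of 511 cells led by Tac2, Gal and Trh, and 8 were in the glutamatergic cluster N4, led by Adcyap1, Trh and Tcf7l2. The transmitter label of a cluster comes from the summed UMIs of all its cells and need not hold for its Trh-producing neurons. By transmitter UMIs, 13 had Slc17a6 alone, the vesicular glutamate transporter, 4 had GABA genes alone (Gad1, Gad2 or Slc32a1), 6 had both and 7 had neither. Among all 3122 neurons these numbers were 527, 1531, 138 and 926.

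Genes counted together with Trh were tested in the 5 libraries with at least 3 producing neurons (KO1, KO2, WT1, WT2 and WT3), as sums over 28 producing neurons and over the neurons with no Trh UMI, with the library as a block in edgeR's quasi-likelihood test. Of 6254 genes, 63 passed a Benjamini-Hochberg adjusted p of 0.05 (1.01%), 17 higher (0.272%) and 46 lower (0.736%) in Trh-producing neurons, and 549 had an unadjusted p under 0.05 (8.78%). Under DESeq2-style size factors the split was 22 higher and 31 lower. DESeq2's own test called 22 genes, and 36 to 63 passed when 1 library was left out, the fewest without KO1. With both sums limited to neurons of at least 1000 UMIs, 61 passed.

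Of 12 regional transcription factors tested, Onecut2 and Sim1 were higher and Six6 was lower in Trh-producing neurons, with a median log2 fold change of -0.64 against -0.25 over all genes tested. Onecut2, a homeodomain factor, had 118 and 129 CPM (UMIs of the gene per 1e6 UMIs of the cells summed) in producing neurons of KO1 and KO2 and 95.9, 69.8 and 114 CPM in those of WT1, WT2 and WT3, against 6.2 to 20.4 CPM in other neurons. The 2 sets did not overlap, and the log2 fold change was 2.65 ± 0.57 (SE; adjusted p = 9.59e-04). Zic1, a zinc-finger factor, averaged 275 ± 122 CPM in producing and 63.3 ± 25.2 CPM in other neurons (SD, n = 5 libraries), a log2 difference of 1.98 ± 0.41 (adjusted p = 3.74e-04). Sim1, which specifies neurons of the paraventricular nucleus, was found in 13 of 30 producing neurons and in 3.29% of neurons without Trh. Its log2 fold change was 1.98 ± 0.54 (adjusted p = 0.0321), with producing neurons higher in 4 of 5 libraries and at 0 in WT2. It did not pass without KO1, KO2 or WT3 (adjusted p = 0.0686, 0.225 and 0.137).

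Cbln1, a secreted organiser of synapses, Nrn1 (neuritin) and Unc13c, which primes vesicles for release, were each higher in producing neurons of all 5 libraries. Cbln1 was higher by 2.26 ± 0.52, Nrn1 by 2.24 ± 0.46 and Unc13c by 2.24 ± 0.47 on the log2 scale (adjusted p = 0.00318, 3.58e-04 and 5.36e-04). Single libraries decided several of these calls: the adjusted p was 0.146 for Cbln1 without WT2 and 0.0518 without KO1, 0.462 for Nrn1 and 0.0709 for Zic1 without WT1, and 0.182 for Unc13c without KO1. The vesicle GTPase Rab3b, the calcium-binding protein Calb2 and the adhesion protein Lsamp rose less, by 1.05 ± 0.26, 1.05 ± 0.28 and 0.63 ± 0.18, and each lost the call without some libraries. The adjusted p was 0.0718 and 0.0726 for Rab3b without KO2 and WT3, 0.334 and 0.476 for Calb2 without KO1 and WT2, and 0.0998 to 0.414 for Lsamp without KO1, KO2, WT1 or WT3. Onecut2 passed whichever of the 5 libraries was left out (adjusted p 6.26e-04 to 0.0213).

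Among the precursor-cutting enzymes, Pcsk2 was higher in Trh-producing neurons, with 22 of 30 cells positive and a log2 fold change of 1.00 ± 0.25 (adjusted p = 0.00864, higher in 4 of 5 libraries; 0.0597, 0.167 and 0.0774 without KO1, WT1 and WT2). It was the 1 of 14 processing genes called. Pcsk1 (-0.96 ± 0.53), Pam (-0.48 ± 0.24) and Qpct, which closes the first residue of Trh (-0.84 ± 0.51), did not pass (adjusted p = 0.608, 0.535 and 0.664). Of 17 other peptide genes tested, 1 was higher and 10 were lower. Their median log2 fold change was -3.88, against -0.25 over all genes tested. The higher one was Penk, the enkephalin precursor (1.49 ± 0.29, adjusted p = 9.28e-05), but its 52 UMIs came from 5 cells, with 710, 735 and 768 CPM in producing neurons of KO1, WT1 and WT2 and 0 in those of KO2 and WT3, against 88.5 to 165 CPM in other neurons. Its adjusted p was 0.243 without KO1 and 0.107 without WT1.

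The lower peptides included Pomc (-3.99 ± 0.42), Gal (-3.93 ± 0.40) and Cartpt (-2.37 ± 0.27). No Oxt UMI was counted in any producing neuron, which put it at least 76.5-fold lower against a floor of 3 UMIs over the group, and Cck was at least 5.08-fold lower on the same basis. Avp had 1 UMI in producing neurons, a ratio of 0.00136 to other neurons (exact 95% interval 3.44e-05 to 0.00756). Agrp and Npy also had 1 UMI each. These ratios compare summed UMIs and not shares of cells, and the interval covers counting error of UMIs only. Of neurons without Trh, 8.03% held an Oxt UMI, 20.3% an Avp UMI and 5.33% an Agrp UMI. At the share of Oxt, 0 of 30 cells says little about how many cells carry it. The GABA genes Slc32a1, Gad1 and Gad2 were lower, but the adjusted p without single libraries reached 0.101, 0.310 and 0.662, the highest without KO1 for Slc32a1 and without KO2 for Gad1 and Gad2. Slc32a1 had 3 UMIs in 1 of 30 cells, a ratio of 0.157 (0.0323 to 0.458). Slc17a6 was counted in 19 of 30 cells and was higher in all 5 libraries, but did not pass (0.83 ± 0.26, adjusted p = 0.0994; 0.0179 with DESeq2-style size factors). The factor Six6 and the retinoid-binding protein Crabp1 had 0 UMIs, at least 3.44-fold and 6.69-fold lower. Crabp1 was counted in 3.69% of neurons without Trh, so 0 of 30 cells says little about its share of cells. The prolactin receptor Prlr changed by -1.91 ± 0.52 (adjusted p = 0.0313; 0.361 without KO1, 0.0936 without WT1 and 0.1004 without WT3). Of 3 dopamine genes and 3 peptide-breakdown genes tested, none was called at that threshold. The glial gene Ptgds (2.88 ± 0.46) was called higher too and is named here after its values were seen. Of its UMIs in producing neurons, 57 of 66 lay in 1 WT2 cell of cluster N12, and without it Ptgds stood at 74.5 CPM in producing neurons against 86.1 CPM in other neurons.

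The Trh neurons of the main clusters differed in what they carried beside Trh. In N4, 8 of 8 had Slc17a6, 8 of 8 Zic1, 6 of 8 Calb2, 5 of 8 the factor Fezf1 and 4 of 8 Penk. In N0 these counts were 10, 7, 6, 0 and 1 of 20. Sim1 was found in 10 of 20 Trh neurons of N0 and 2 of 8 of N4, and the granin Vgf in 9 of 20 and 0 of 8. Clustering used these genes, so the differences are a description.

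**Figure D2:**
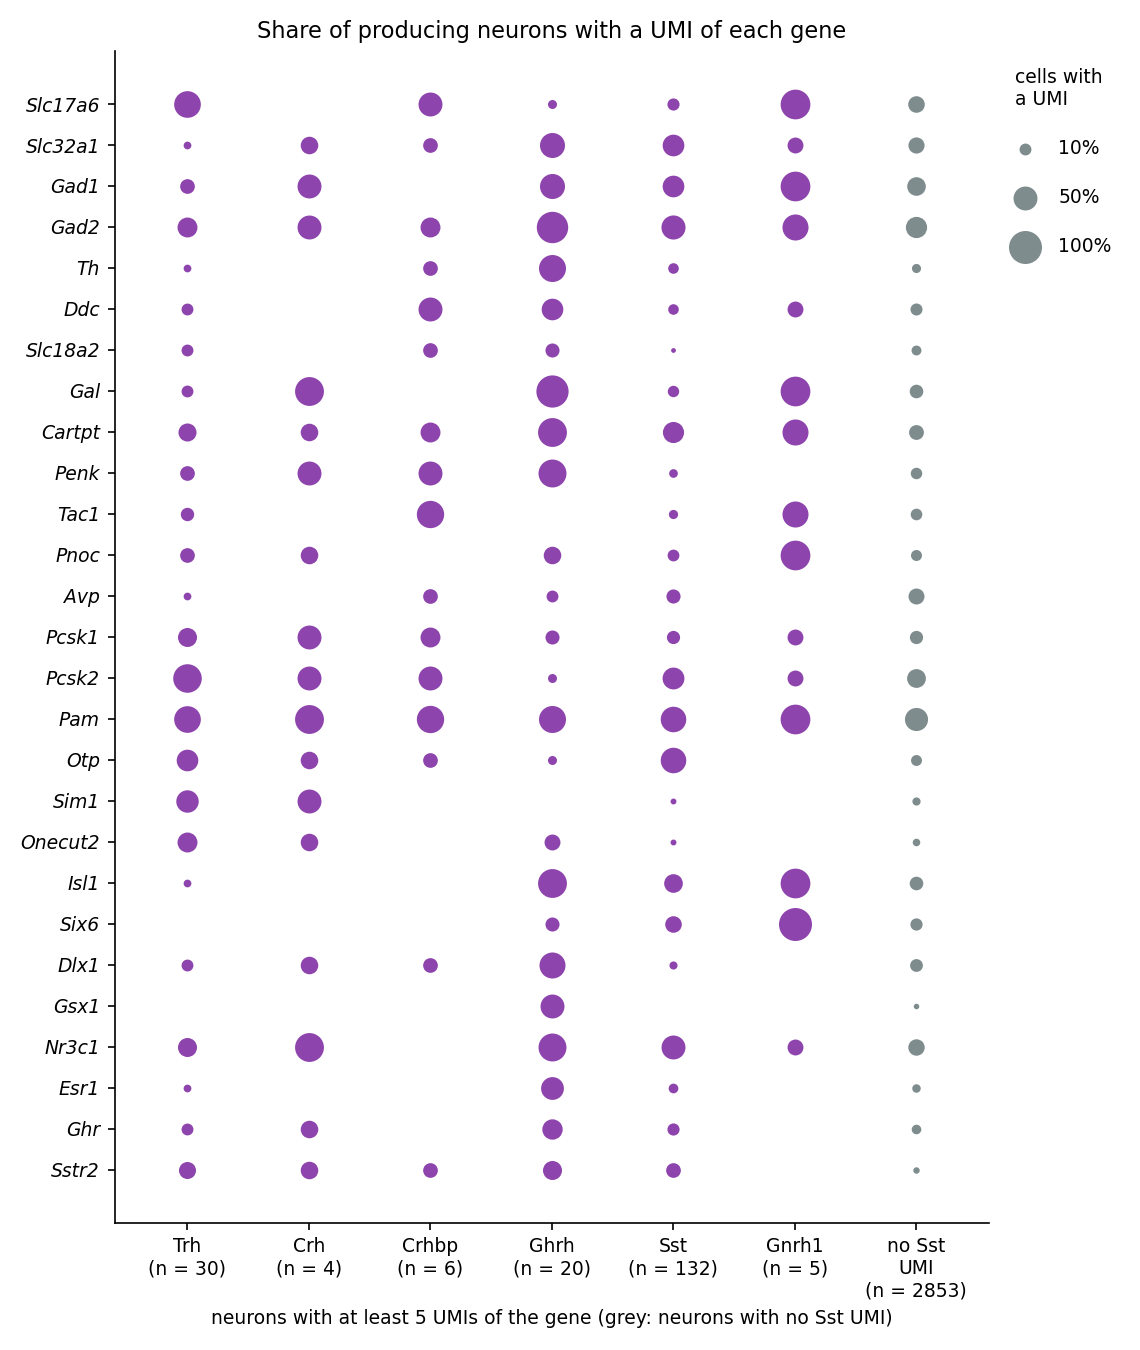
Share of producing neurons with at least 1 UMI of each gene (rows) for each member (columns, n producing neurons), with neurons lacking Sst UMIs in grey; the area of a point gives the share. Sim1 is shared by Trh and Crh neurons, Otp is most frequent in Sst neurons, Gal and Gsx1 in Ghrh neurons, and Six6 is found in all 5 Gnrh1 neurons. Shares are not matched for depth: median totals were 2434 to 9005.5 UMIs in the producing sets and 1372 in the grey neurons.

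Crh, which starts the stress axis, was the rarest hormone. Its 52 UMIs were split into 1, 21 and 18 in KO libraries and 0, 3 and 9 in WT libraries. The 4 producing neurons held 8 and 5 UMIs in KO2, 7 in KO3 and 6 in WT3, and all 4 were in cluster N0. Sim1 was found in 2 of the 4 cells against 3.64% of neurons without Crh, the glucocorticoid receptor Nr3c1 in 3, Gal in 3, Penk in 2 and Otp in 1. With at most 8 UMIs per cell and 2 KO libraries supplying 39 of the 52 UMIs, these are values of single cells and no test was made.

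Crhbp, a secreted protein that binds and blocks Crh, was counted in 46 cells. The UMIs were 11, 17 and 6 in KO libraries and 91, 8 and 11 in WT libraries, so WT1 held more than all other libraries together. Producing neurons numbered 1 in KO2, 5 in WT1 and 0 in the remaining libraries. With 0 of 303 neurons in WT3 and 0 of 336 in WT2, shares of up to 0.990% and 0.893% are allowed (3 counts). The richest cells were 2 WT1 neurons of 41 and 16 UMIs in cluster N15, a glutamatergic cluster led by Tac1, Nr4a2 and Crhbp. Tac1, the substance P precursor, was found in 4 of 6 producing neurons at 16 times its CPM in other neurons, Penk in 3 at 8.53 times and the dopamine enzyme Ddc in 3 at 4.47 times. Of the 6 cells, 2 (5 UMIs each in WT1, of 864 and 907) had barcodes 1 base from a deeper one. The KO2 cell was also an Sst-producing neuron (8 Crhbp and 195 Sst UMIs), the only cell that produced 2 members. No producing neuron of Crh held Crhbp, and none of Crhbp held Crh. Among neurons without Crh 1.35% held Crhbp, and among those without Crhbp 0.519% held Crh, so 0 was likely in so few cells.

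Of 20 Ghrh-producing neurons, 18 were in cluster N11, a GABAergic cluster of 76 cells led by Gal, Ghrh and Th, and 18 carried GABA genes without Slc17a6. KO libraries had 5, 5 and 2 of them and WT libraries 5, 2 and 1. The 3 richest held 47 of 2720 UMIs (1.73%) in KO2, and 83 of 15917 in WT1 and 41 in WT3. Too few libraries had 3 or more producing neurons for a test, so the values below describe 20 pooled cells.

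Gal, the galanin precursor, was found in 19 of 20 Ghrh neurons at 4307 to 13368 CPM over the 6 libraries, against 172 to 1091 CPM in neurons without Ghrh, a 19.5-fold higher pooled level (9791 against 502 CPM). These ranges did not overlap. Th, the first enzyme of dopamine synthesis, was found in 13 of 20 at 487, 425 and 352 CPM in Ghrh neurons of KO libraries and 240, 1016 and 0 CPM in those of WT libraries, against 42.3 to 91.0 CPM in other neurons. WT3, with 1 producing neuron, was the library at 0. Gsx1, a homeodomain factor needed for Ghrh expression in mice, was found in 10 of 20 cells and in 0.784% of neurons without Ghrh, at 126 against 4.03 CPM (31.3-fold). It was at 0 in the 2 Ghrh neurons of KO3. The pooled CPM was also higher in Ghrh neurons for Cartpt (15 of 20 cells, 4.94-fold), Penk (14 of 20, 4.21-fold), Dlx1 (12 of 20, 3.34-fold) and Isl1 (15 of 20, 2.79-fold).

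Several receptors through which the growth axis and steroids feed back were counted in these cells. The growth hormone receptor Ghr was found in 7 of 20 Ghrh neurons at 158 CPM against 36.7 CPM in other neurons, the somatostatin receptor Sstr2 in 6 at 84.2 against 13.1 CPM, the oestrogen receptor Esr1 in 9 at 94.8 against 22.9 CPM, and Nr3c1 in 14 at 326 against 160 CPM. None of the 20 cells held a Trh, Crh or Sst UMI, against 2.65%, 0.523% and 8.69% of neurons without Ghrh. At these shares 0 of 20 cells says little. A Gnrh1 UMI was found in 1 of the 20 and a Crhbp UMI in 1. Conversely, 4 of 30 Trh-producing neurons held a Ghrh UMI, against 1.84% of neurons without Trh, and 0 of them were Ghrh-producing.

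Ghrh was also counted outside neurons. In ependymal cells, the ciliated lining of the ventricle, 34 of 271 had a Ghrh UMI (12.5%, exact 95% interval 8.85 to 17.1%), as did 60 of 3122 neurons (1.92%, 1.47 to 2.47%), 12 of 421 tanycytes (2.85%) and 4 of 5476 cells of 8 other classes (0.0730%). The 8 other classes leave out red blood cells, of which 1 of 39 barcodes held a Ghrh UMI. Intervals cover counting error only. Median depth was 1156 UMIs in ependymal cells, 1434 in neurons, 1173 in tanycytes and 737 in the other classes. Ependymal cells with a Ghrh UMI ran from 385 UMIs (WT2) to 88227 (KO2), with others at 59075 (WT3), 49754 (KO2) and 39495 (KO1). The class median therefore does not describe their depth, and the shares above are not matched for it. After thinning each cell to 500 UMIs, the shares were 1.80% (4 of 222), 1.05% (29 of 2765), 0.276% (1 of 362) and 0.0445% (2 of 4499), so the order of ependymal cells and neurons rests on 4 thinned cells. By level, ependymal cells had 60.6, 69.0 and 16.7 CPM in KO libraries and 39.5, 43.5 and 29.7 CPM in WT libraries (43.2 ± 19.3, SD, n = 6), overlapping the neurons (65.2 ± 26.3). All 6 lay above the 8 other classes together (0.571 ± 0.934).

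Ependymal cells held 0.0755 Gal UMIs per Ghrh UMI and no Th UMI, and tanycytes 0.417 Gal UMIs per Ghrh UMI and no Th UMI. The 20 Ghrh-producing neurons held 2.13 Gal UMIs per Ghrh UMI (930 and 437 UMIs) and 35 Th UMIs. Summed over all neurons, with or without Ghrh, the ratio was 8.95, and over the 8 other classes 8.25. The ependymal marker Ccdc153 stood at 4120 CPM in ependymal cells with Ghrh, 3850 CPM in those without and 2.74 CPM in neurons. Of the 34 ependymal cells with Ghrh, 25 held 1 Ghrh UMI. The one with 5 or more was a KO2 barcode with 7 Ghrh UMIs among 88227 UMIs and 10008 genes, far more than any neuron described here.

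**Figure D3:**
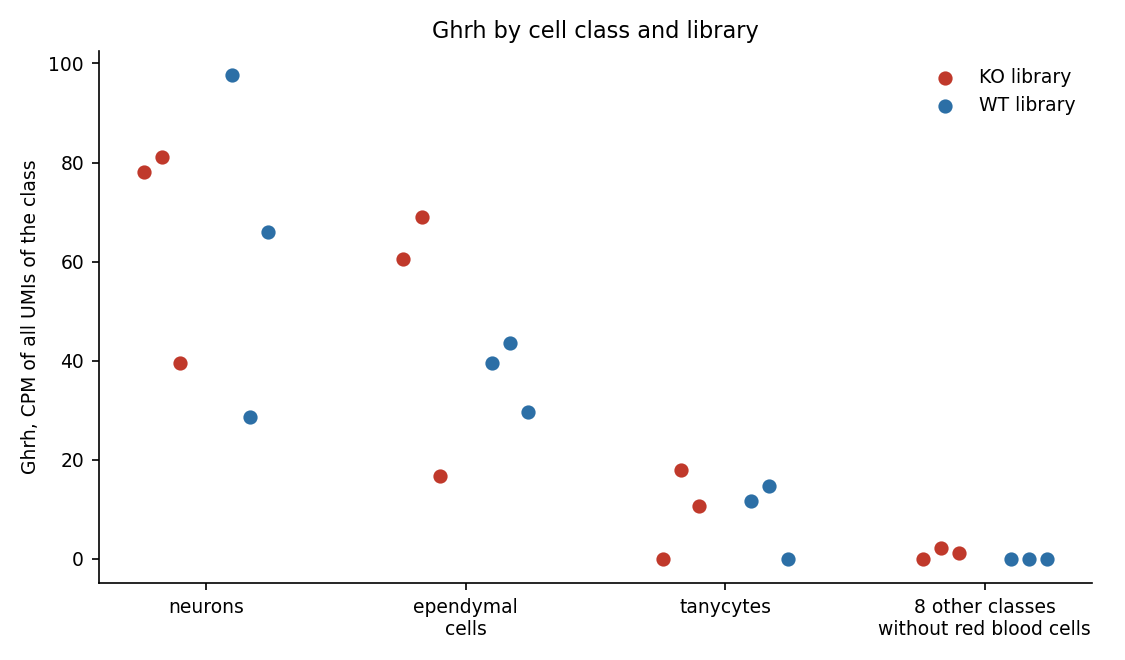
Ghrh level (y axis, CPM of all UMIs of the class) by cell class and library; red points are KO libraries and blue points WT libraries. Ependymal cells range from 16.7 to 69.0 CPM and overlap neurons (28.7 to 97.7 CPM), while the 8 other classes pooled stay at or below 2.19 CPM in all 6 libraries. Red blood cells are left out.

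Somatostatin, the inhibitor of growth hormone release, had producing neurons in every library: 24, 21 and 21 in KO libraries and 29, 23 and 14 in WT libraries. The median producing neuron held 10, 21 and 22 Sst UMIs in KO1, KO2 and KO3 and 17, 19 and 16.5 in WT1, WT2 and WT3. Cells of 100 UMIs or more numbered 7 in KO2 and none in KO1 or KO3, against 2 each in WT1 and WT2 and 1 in WT3. In the richest, 506 of 7563 UMIs (6.69%) in KO2 were Sst, and in a WT2 neuron 221 of 2480 (8.91%). Of the 132 producing neurons, 18 (13.6%) had a barcode 1 base from a deeper one (1, 6 and 0 in KO libraries, 4, 6 and 1 in WT libraries), as did 14.03% of all neurons. Without them the producing neurons numbered 23, 15 and 21 in KO libraries and 25, 17 and 13 in WT libraries. Of the 15 barcodes under 600 UMIs with at least 5 Sst UMIs, 11 (73.3%) were such neighbours, against 15.1% of all barcodes under 600 UMIs, and each of the 11 lay next to a deeper barcode that also had 5 or more. An example from KO2 paired 33 of 361 UMIs (9.14%) with 393 of 5876 (6.69%). That deeper barcode clustered with red blood cells and is not among the 132.

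By transmitter UMIs, 86 of the 132 Sst neurons had GABA genes alone, 10 Slc17a6 alone, 4 both and 32 neither, against 1531, 527, 138 and 926 of all 3122 neurons. The richest cells did not follow the majority: of 12 neurons with at least 100 Sst UMIs, 8 had no GABA UMI, 6 of them with Slc17a6, and 7 were in cluster N1. They were spread over several clusters, with 54 in N6 (median 18 Sst UMIs), 42 in N1 (median 23), 14 in N0, 8 in N5 and 6 in N7. N6 was led by Sst, Otp and Pthlh, and its Sst neurons carried Nrgn (37 of 54), Calb1 (36), Pthlh, the parathyroid hormone-like peptide (29), Bcl11b (26) and Crym (22), with Slc17a6 in none. In N1, Pthlh was found in 0 of 42 and Crym in 1, whereas the growth hormone receptor Ghr was found in 8 of 42 against 1 of 54 in N6, Pcsk1 in 9 against 2, Zic1 in 10 and Cartpt in 21. GABA genes were found in few N1 cells, with Gad2 in 11, Gad1 in 3 and Slc32a1 in 2 of 42, against 39, 34 and 35 of 54 in N6, and Slc17a6 was found in 7 of 42. All 6 Sst neurons of N7 carried Npy, Agrp and Otp. The neurons of N1 were shallow, with a median of 649 UMIs in the whole cluster against 2326.5 in N6. Several KO2 Sst neurons of N1 had barcodes 1 base from a deeper Sst neuron of N6 or N0. A WT3 Sst neuron of N1 was likewise 1 base from a deeper Sst neuron of N5. Whether these barcodes stand for separate cells was not tested, and the N1 counts include them. Clustering also used such genes, so the contrast of N1 with N6 is a description and does not establish separate types of Sst neuron. Libraries contributed unequally, KO libraries giving 20, 5 and 5 of the N6 neurons and 2, 13 and 6 of the N1 neurons, and WT libraries 14, 8 and 2 and 6, 10 and 5.

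Genes counted together with Sst were tested in all 6 libraries in the same way. Of 6235 genes, 146 passed in edgeR (2.34%), 72 higher (1.15%) and 74 lower (1.19%) in Sst-producing neurons, and 721 had an unadjusted p under 0.05 (11.6%). DESeq2 called 85, and leaving out 1 library gave 95 to 150, the fewest without KO1, with 150 without KO2. Without near barcodes 154 passed.

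Otp, a homeodomain factor of peptide neurons of the hypothalamus, had 465, 578 and 954 CPM in Sst-producing neurons of KO libraries and 326, 454 and 291 CPM in those of WT libraries, against 35.8 to 176 CPM in other neurons. No library of one set reached the other, and the log2 fold change was 2.46 ± 0.17 (SE; adjusted p = 6.07e-17). It was found in 76 of 132 producing neurons and in 8.20% of neurons without Sst. Crym, which binds thyroid hormone in the cytosol, had the largest fold among the named genes (3.12 ± 0.45, adjusted p = 1.54e-06), with 189, 84.9 and 126 CPM in producing neurons of KO libraries and 151, 47.0 and 44.8 CPM in those of WT libraries. Other neurons stood at 59.8 CPM in KO2 and at 1.2 to 10.01 CPM in the 5 other libraries. Most Crym-positive producing neurons, 22 of 24, were in cluster N6.

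Ramp1, the partner that turns the calcitonin receptor-like receptor into a receptor for CGRP, rose by 2.77 ± 0.34, and Nrgn, a calmodulin-binding protein of dendrites, by 2.52 ± 0.22 (adjusted p = 2.70e-08 and 3.69e-13). Lamp5, a membrane protein of some inhibitory neurons, rose by 2.24 ± 0.35, the actin scaffold Baiap2 by 1.86 ± 0.21, the release protein Cplx2 by 1.46 ± 0.16 and the chromatin-binding factor Arid5b by 1.36 ± 0.22. All of these were higher in producing neurons of 6 of 6 libraries. From the lists of pathway genes, the vesicular GABA transporter Slc32a1 (0.79 ± 0.19, adjusted p = 0.00976) and Nr3c1 (0.75 ± 0.19, adjusted p = 0.0121) were higher in 5 of 6 libraries, KO2 being the exception for both. Slc32a1 did not pass without KO1 or WT1 (adjusted p = 0.135 and 0.0776), nor Nr3c1 without KO1, KO3 or WT2 (0.0967, 0.0513 and 0.171).

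Of 16 listed peptide genes tested with Sst, 0 were higher and 10 lower, with a median log2 fold change of -2.05 against -0.02 over all genes tested. Avp (-5.70 ± 0.21), Oxt (-5.57 ± 0.21), Pomc (-4.03 ± 0.27) and Gal (-3.78 ± 0.29) were lower in 6 of 6 libraries, as were Adcyap1 (-2.41 ± 0.53) and Tac1 (-1.66 ± 0.24). Vip had 1 UMI in producing neurons, a ratio of 0.0113 to other neurons (0.000285 to 0.0627). The vesicular monoamine transporter Slc18a2 also had 1 (0.0215, 0.000545 to 0.120), and Ddc was lower by -1.77 ± 0.39. Vip was found in 2.56% of neurons without Sst and Slc18a2 in 6.38%, against 1 of 132 producing neurons each. The 2 intervals cover counting error of UMIs only. Slc17a6 was found in 14 of 132 producing neurons and in 21.9% of the others, and was lower by -1.80 ± 0.30 (adjusted p = 3.20e-05), with 0 CPM in KO1 and KO3. Of 14 processing genes, Chga alone was called (-1.41 ± 0.17), and of 10 transcription factors tested, Otp was higher and Dlx1 (-1.86 ± 0.43) and Lhx1 (1 UMI) were lower. Without WT2 the adjusted p of Dlx1 was 0.076. Prlr was lower too (-1.96 ± 0.34). The comparisons for Trh and Sst draw on many of the same other neurons and are given side by side without a test of their overlap.

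**Figure D4:**
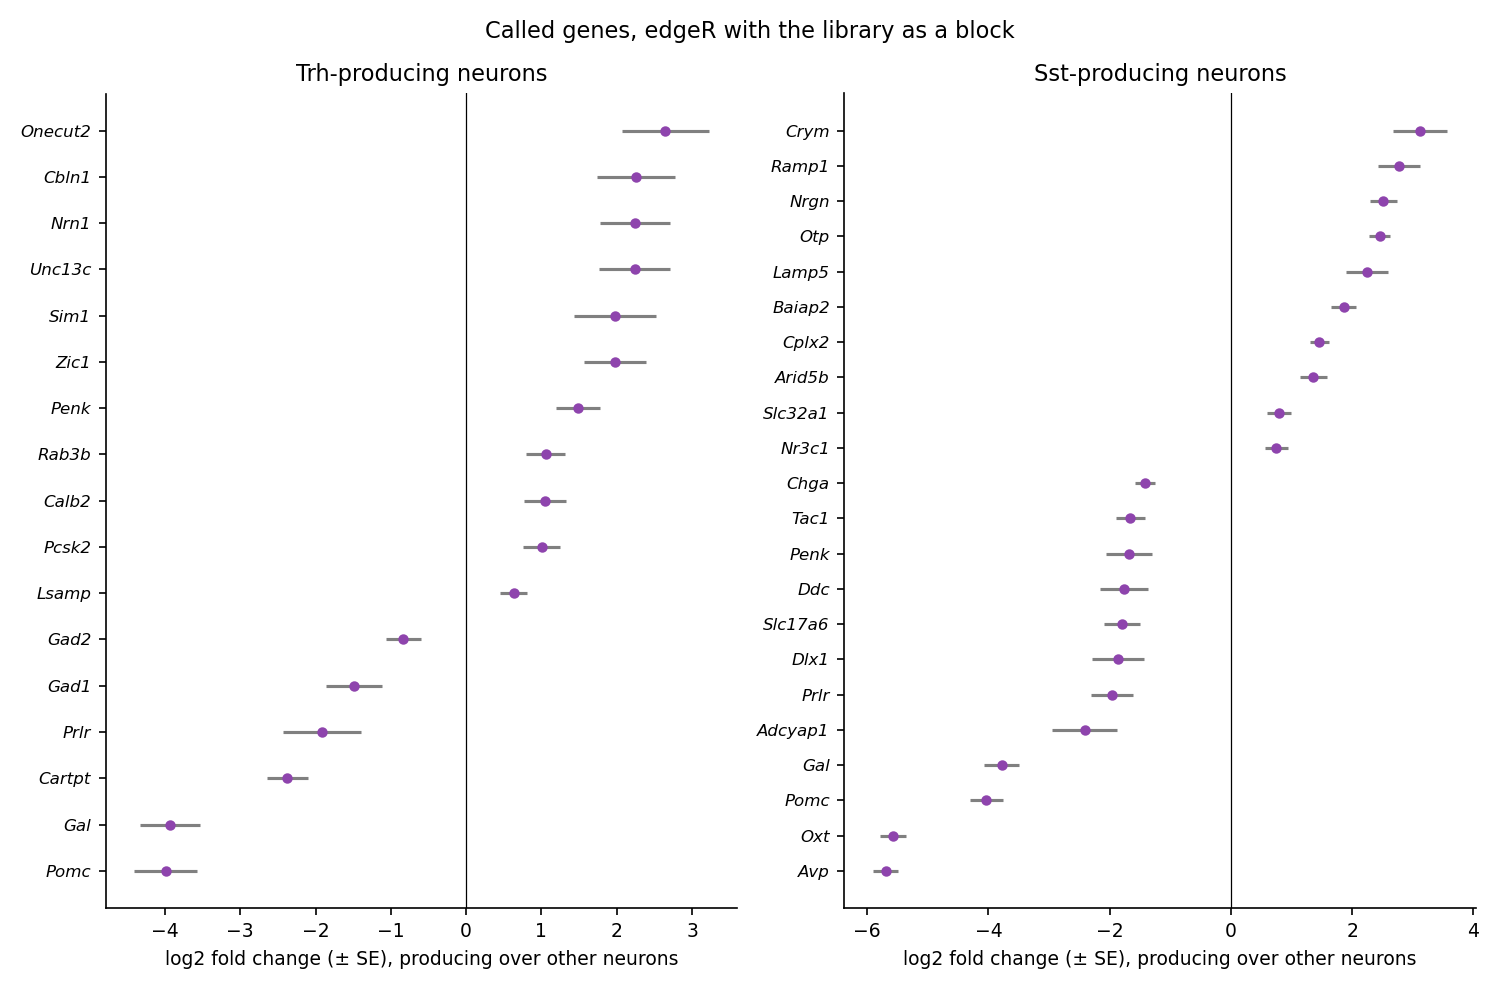
Log2 fold change (± SE) of producing over other neurons, edgeR with the library as a block (left, Trh in 5 libraries; right, Sst in 6). Shown are called genes among the largest rises, the largest drops and the fixed lists, with more than 3 UMIs in producing neurons. Ptgds, named in the text outside these rules, is not among them. Positive values are higher in producing neurons; Avp, Oxt, Pomc and Gal lie below -3 beside Sst, and Pomc and Gal do so beside Trh.

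Gnrh1 neurons, which drive reproduction, are few and scattered, and 5 were captured. They held 442 and 30 UMIs in KO3, 199 in KO2, 168 in KO1 and 159 in WT1. Gnrh1 took 3.18 to 6.37% of all UMIs of each of these cells, including the shallow one (30 of 471 UMIs). The other 14 cells with a UMI had 1 each, so nothing lay between 1 and 30 UMIs, and no producing neuron was counted among 336 neurons of WT2 and 303 of WT3. Of the 5, 4 were in cluster N18, which had 14 cells, 71.4% of them from KO1, and was led by Gnrh1 and Cga, the shared subunit of the pituitary glycoprotein hormones. Only 1 of these 4 neurons was from KO1. The leading genes describe the whole cluster, most of which was not Gnrh1-producing, and which of its cells held Cga is not given here. A filtered KO1 barcode with 9 of 337 Gnrh1 UMIs (2.67%) was 1 base from the KO1 neuron of 168 of 5284 (3.18%).

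Among the 5 cells, Six6, a homeodomain factor needed for Gnrh1 neurons in mice, was found in 5 (655 CPM against 78.3 CPM in neurons without Gnrh1), Pnoc, the nociceptin precursor, in 4 (1037 against 63.9 CPM) and Isl1 in 4 (764 against 126 CPM). Gal was found in 4, Tac1 in 3 and the kisspeptin receptor Kiss1r, through which kisspeptin stimulates these neurons, in 2 with 3 UMIs in all. Gad1 and Slc17a6 were each found in 4 of 5, and 4 cells carried genes of both transmitters. None held a UMI of another member, but 5 cells are few beside shares of 0.514% (Crh) to 8.64% (Sst) among neurons without Gnrh1. These are values of 5 pooled cells, 4 of them from KO libraries, and no test was made.

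The remaining comparison asked whether loss of IDOL altered the hormones. Across all genes, edgeR called 0 of 13057 in sums over all cells (0%), although 262 had an unadjusted p under 0.05 (2.01%), 982 did not overlap between genotypes (7.52%) and DESeq2 called 4. In sums over neurons 3 of 9818 were called (0.0306%), 1 higher (0.0102%) and 2 lower (0.0204%) in KO. Of these genes 431 had an unadjusted p under 0.05 (4.39%) and 956 did not overlap between genotypes (9.74%). None of the 6 members was called in either. In neurons 3 members had an unadjusted p under 0.05, namely Gnrh1, Crh and Crhbp, the rare ones whose level follows single cells.

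Gnrh1 had 127, 164 and 506 CPM in neurons of KO libraries and 76.2, 0 and 1.5 CPM in those of WT libraries. Every KO library lay above every WT library, with a log2 fold change of 2.85 ± 0.57 (SE; unadjusted p = 5.06e-05, adjusted p = 0.124). The call turned on single libraries: the adjusted p was 0.0279 without KO1, 1.52e-05 without WT1, and 0.0517 to 0.568 without each of the others. The UMIs behind it lay in 4 KO cells and 1 WT cell. As a share of neurons, Gnrh1-producing cells were 0.257 ± 0.155% in KO and 0.0407 ± 0.0706% in WT libraries (SD, n = 3 each; two-sided exact permutation p = 0.1, the smallest that 3 against 3 libraries allow). KO1, KO2 and WT1 had 1 producing neuron each, so their shares differ only by the number of neurons. The 0 in WT2 and WT3 allows shares of up to 0.893% and 0.990% (3 counts). Shares of neurons with at least 1 Gnrh1 UMI overlapped, at 0.452 ± 0.367% in KO and 0.192 ± 0.171% in WT (exact permutation p = 0.5).

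Crhbp had 7.58, 13.9 and 3.20 CPM in KO neurons and 43.4, 10.05 and 16.5 CPM in WT neurons, a log2 fold change of -1.66 ± 0.45 (unadjusted p = 0.00139, adjusted p = 0.969). KO2 lay above WT2, so the groups overlapped, and without WT1 the fold was -0.63. Crh had 0.758, 16.4 and 18.2 CPM in KO neurons and 0, 4.31 and 10.5 CPM in WT neurons, which overlapped (1.80 ± 0.83, unadjusted p = 0.0413, adjusted p = 0.986).

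The 3 members with more cells showed smaller differences. Trh had 51.6, 86.9 and 34.2 CPM in KO neurons and 61.9, 87.6 and 117 CPM in WT neurons (-0.54 ± 0.27, adjusted p = 0.986). Ghrh had 78.1, 81.1 and 39.5 CPM in KO neurons and 97.7, 28.7 and 65.9 CPM in WT neurons (-0.02 ± 0.29, adjusted p = 0.997). Sst had 347, 1682 and 645 CPM in KO neurons and 477, 1293 and 987 CPM in WT neurons (-0.04 ± 0.36, adjusted p = 0.997), and KO2 was the highest of all. Leaving KO2 out moved the Sst fold to -0.89 in neurons and to -0.998 in all cells, still without a call. Without single libraries the fold ranged from -0.95 (without KO2) to -0.28 (without KO3) for Trh, from -0.32 (without WT2) to 0.50 (without WT1) for Ghrh, and from 0.59 (without WT1) to 3.20 (without WT3) for Crh. The summed level mixes the number of producing cells with the UMIs in each, and these were also compared apart.

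Producing neurons of Trh made up 0.855 ± 0.392% of neurons in KO and 1.12 ± 0.240% in WT libraries (exact permutation p = 0.5), of Ghrh 0.703 ± 0.246% and 0.512 ± 0.158% (exact p = 0.4), of Sst 4.05 ± 0.756% and 5.00 ± 1.68% (exact p = 0.4), of Crh 0.173 ± 0.156% and 0.110 ± 0.191% (exact p = 1) and of Crhbp 0.0505 ± 0.0875% and 0.204 ± 0.353% (exact p = 1), each with n = 3 libraries a genotype. Differences of this size lay within the spread between libraries. Without single libraries the KO minus WT difference in percentage points ranged from -0.446 (without KO2) to -0.0573 (without KO3) for Trh, from 0.084 (without KO1) to 0.325 (without KO3) for Ghrh and from -1.68 (without WT1) to -0.0326 (without WT2) for Sst. Without near barcodes the difference for Sst was -0.812 percentage points, against -0.953 with them, and for Crhbp -0.0926 against -0.153. Day of preparation was not given per library, so it could not be separated from genotype.

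**Figure D5:**
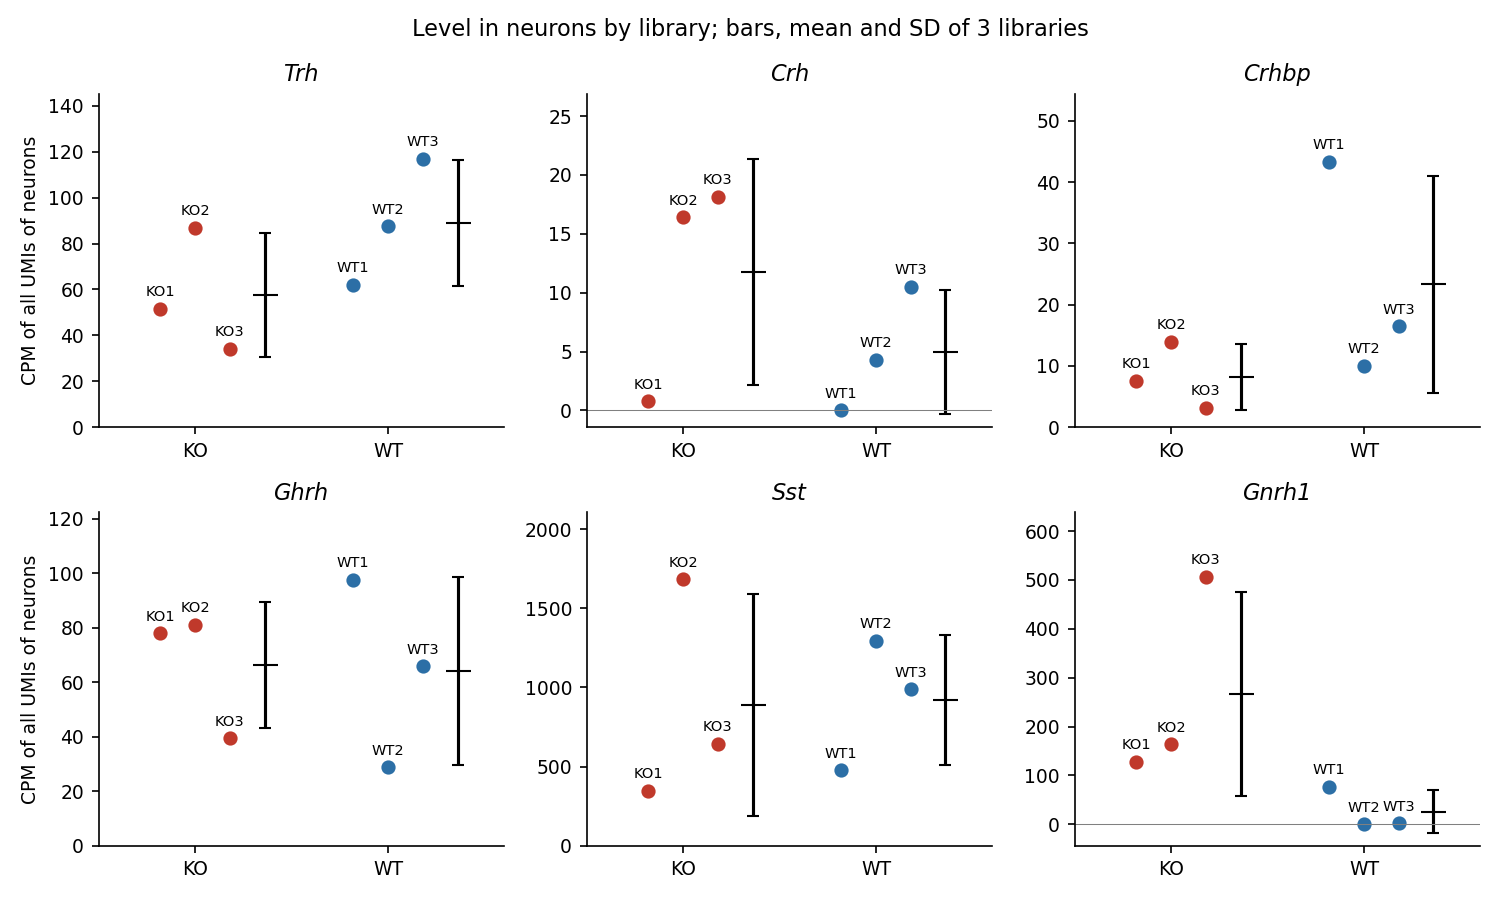
Level of each member in neurons (y axis, CPM of all UMIs of the neurons of a library) for the 3 KO (red, left) and 3 WT (blue, right) libraries; bars are mean and SD of 3 libraries and the scales differ between panels. The genotypes overlap for 5 of the 6 genes; for Gnrh1 the KO libraries (127 to 506 CPM) lie above the WT libraries (0 to 76.2 CPM).

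Sst averaged 905 ± 514 CPM in neurons and 7.38 ± 5.77 CPM in oligodendrocytes, which should lack it (SD, n = 6 libraries). A UMI of Sst was found in 8.70% of neurons and 1.04% of oligodendrocytes at median depths of 1434 and 1077 UMIs, and in 6.47% and 0.484% after thinning to 500 UMIs. Trh averaged 73.2 ± 29.7 CPM in neurons, Crh 8.35 ± 7.86, Gnrh1 146 ± 188 and Crhbp 15.8 ± 14.3. For Ghrh, whose ependymal counts are given above, 0 of 1287 oligodendrocytes had a UMI, which allows up to 0.233% of cells with a UMI and does not limit the share expressing the gene. Among red blood cells, 39 barcodes in all, Sst rested on 1 KO2 barcode (393 of 5876 UMIs) and Trh on 1 WT2 barcode (6 of 827).

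The receptors of these hormones were sparse in neurons, which are not the pituitary targets. In neurons Trhr averaged 14.1 ± 7.78 CPM, Crhr1 5.53 ± 3.03, Crhr2 4.72 ± 2.92, Sstr2 13.5 ± 4.06 and Sstr5 4.58 ± 1.83. Sstr1 was higher in oligodendrocyte precursors (109 ± 31.8 CPM) than in neurons (23.3 ± 4.75), without overlap between libraries. Of the 11 receptors listed, 3 could be tested between KO and WT neurons and none was called in edgeR. Trhr had an unadjusted p of 0.0275 (1.00 ± 0.42, adjusted p = 0.986). Trhde, the ectoenzyme that breaks down Trh, averaged 36.6 ± 19.8 CPM in ependymal cells, 23.3 ± 19.3 in tanycytes and 11.7 ± 5.61 in neurons. Its library ranges overlapped, at 13.5 to 65.3, 0 to 42.3 and 7.15 to 22.4 CPM. Pam was at 529 ± 94.7 CPM in neurons, Pcsk2 at 233 ± 30.7 and Pcsk1 at 112 ± 33.0. Qpct, whose product forms the ring at the start of Trh and Gnrh1, was higher in oligodendrocyte precursors (704 ± 157 CPM) than in neurons (120 ± 18.1). Levels here are CPM and carry no length term, since only the 3′ end of a transcript is counted.

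Over the 17 neuron clusters of at least 20 cells, the genes most like Ghrh by Pearson's r of log2(CPM + 50) were Cldn9 (0.993), Pck1 (0.993), Sln (0.993), Aox3 (0.992) and Foxd2 (0.991). For Crhbp they were Hgf (0.974), Irx6 (0.974), Frem3 (0.969), Foxa1 (0.967) and Pdk4 (0.959). Ghrh was highest in N11, at 1698 CPM against at most 22.0 CPM in any other cluster. Crhbp was highest in N15, at 390 CPM against at most 41.5 CPM elsewhere. These r values therefore rest largely on a single cluster, and a gene counted mainly in that cluster ranks high whatever its function. Cldn9 and Pck1 were tied, as were Hgf and Irx6. Trh, with 2 main clusters, was most like, among others, Serpinb1b (0.840), Trhr (0.838), Igfbpl1 (0.830) and Nkd2 (0.812), and Sst most like Spink8 (0.867) and 4931440J10Rik (0.821). Crh spanned 0.62 log2 units over the clusters, and the main Gnrh1 cluster was under 20 cells, so their lists are not given. Clusters share libraries and were drawn from the same expression values, and these r values are a description.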

How the data were processed

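The authors deposited 1 table holding, for each gene, the raw UMI counts in each barcode. The submitters' processing notes name bcl2fastq, STAR 2.5.0c, mm10 and GRCm38. The counting program, annotation, strand and the rule that chose barcodes are not given in the sources used here. All per-sample columns were mapped to libraries by name.

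Barcodes with under 300 genes (3965) or over 20% mitochondrial UMIs (1247) were dropped, and of 9449 left Scrublet called 120 doublets (1.27%), also dropped. Clustering used scanpy 1.11.5 under Python 3.11.15 with scikit-learn 1.9.0, igraph 0.11.9 and leidenalg 0.10.2 (2000 variable genes, 30 components, 15 neighbours, Leiden resolution 1). A class name required 3 of its markers to exceed the median cluster 4-fold.

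Total UMIs per library ranged from 1670993 to 4068886. Counts were summed per library, since cells are not replicates, and tested in edgeR 4.0.16 under R 4.3.3 (filterByExpr, TMM, quasi-likelihood, Benjamini-Hochberg). DESeq2 1.42.0 was an alternative. The SE was taken as the size of the log2 fold change divided by the root of its F statistic. Producing neurons were compared with neurons of 0 UMIs where at least 3 producing neurons were present in 2 or more libraries of each genotype, which Trh and Sst met. Shares were compared by exact permutation over libraries. Scripts were tested on simulated data.

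The members and gene lists were chosen with earlier results of these data known. The genes named beside Trh and Sst are the 8 with the largest rise (called, higher in every library, at least 100 CPM), the 4 with the largest drop, and the genes of the fixed lists. Some items that these rules would name are not reported here.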

Additional observations from a re-analysis of the deposited data

How the results depend on the processing

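Genes called between KO and WT in all cells were 0, against 4 in DESeq2, 1 with no gene filter, 1 with the replicate number as a block, 1 over all deposited barcodes and 0 to 1 without single libraries. In neurons they were 3, against 34 with no filter, 8 with the block and 1 to 9 without single libraries. Beside Trh 63 were called, against 22 in DESeq2, 127 with no filter and 36 to 63 without single libraries. Beside Sst 146 were called, against 85, 241 and 95 to 150. The sign of the Ghrh log2 fold change turned in all cells (0.0026 in the test as described) with no filter (-0.0001), without near barcodes (-0.0078), over all barcodes (-0.0557) and without single libraries (-0.28 to 0.64), and in neurons in DESeq2 (0.0453), with no filter (0.0045), with the block (0.0665), with at least 500 genes a cell (0.0085) and without single libraries (-0.32 to 0.50). Sst turned in all cells with the block (-0.245) and without single libraries (-0.998 to 0.397), and in neurons without single libraries (-0.89 to 0.33). Differences in producing share, in percentage points, turned for Crh without single libraries (-0.0013 to 0.1735), for Ghrh after thinning (-0.0359) and for Crhbp after thinning (0.0051) and without single libraries (-0.255 to 0.0505). The cause was not tested. Gnrh1 in neurons passed with the block (adjusted p = 0.033) and with no filter (2.00e-41), and stood at 1.00 in DESeq2, whose log2 fold change was 3.36. In KO1, KO2, KO3 and WT1, 1 cell held 92.7 to 100% of the Gnrh1 UMIs of the kept cells. These adjusted p-values therefore rest on single cells and do not measure how the number of such cells varies. Crhbp in neurons passed with no filter (0.00182). The labels do not say whether the replicate numbers pair libraries. Same-numbered libraries deviated from their group means with r = 0.249, -0.148 and 0.228 over all cells and -0.0611, -0.0148 and 0.157 in neurons. Libraries of different number were not compared, so these values cannot decide whether the libraries are paired. Leaving out near barcodes was chosen after seeing the data. It gave 63 genes beside Trh, 154 beside Sst and 3 between genotypes in neurons. The 10-UMI threshold for Trh was not run because too few libraries had 3 such neurons. Crh, Gnrh1 and Crhbp rest on 4, 5 and 6 producing neurons, and those of Gnrh1 numbered 5 at thresholds of 3, 5 and 10 UMIs.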
